A study of Mus musculus with 8 samples.

Results

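Mitochondrial ribosomal protein genes were compared between 2 clones of CD4+ T cells, called ANT and SAS after their T cell receptors. The members were all protein-coding rows of the deposited count table whose symbol starts with Mrpl (large ribosomal subunit, 49 genes) or Mrps (small subunit, 29 genes). That gave 78 of 39056 rows, and 5 pseudogene rows with such symbols were left out. Each clone had 4 libraries, numbered 1, 3, 4 and 5 for ANT and 1, 2, 3 and 6 for SAS, and the large subunit was also set against the small. In both groups the bone marrow progenitors carried CD4-Cre and a transgenic T cell receptor (TCR) beta chain, lacked Tcra, and had received the TCR alpha chain of 1 clone, ANT or SAS, by retrovirus. The mice were of strain C57BL/6J, and CD4+ T cells were sorted from pooled spleen and lymph nodes. By its title, the series is about clones that react to self and look like T follicular helper cells at steady state. The labels give no age or sex, and each group is 1 receptor, so a difference between receptors and a difference between 2 individual clones cannot be told apart. The labels do not say that the libraries of a group came from separate mice, so each p-value covers only the spread among these libraries, and that spread may be technical.

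Mitochondrial ribosomes translate the few proteins encoded in mitochondrial DNA, which are core subunits of the respiratory chain and of ATP synthase. Their ribosomal RNAs are made inside the organelle, whereas all of their proteins are encoded in the nucleus, translated in the cytosol and imported. Activated T cells enlarge their mitochondria and raise mitochondrial translation when they leave quiescence, and loss of single subunits can impair assembly of the whole particle.

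Libraries held 27600959 to 31810799 counts. The 8 T cell markers summed to 4138 to 5200 CPM (counts per 1e6 of the scaled library size), 8 B cell markers to 1.41 to 4.80 CPM and 12 myeloid markers to 1.36 to 8.73 CPM. Cd8a and Cd8b1 together reached 14.1 to 66.8 CPM in ANT and 1.99 to 4.49 CPM in SAS. Most of this was Cd8b1 (means of 33.6 CPM in ANT and 2.42 CPM in SAS). Cd8a was low in both (2.56 and 0.916 CPM), and 1 of the 2 genes was called, as higher in ANT. The natural killer cell list summed to 32.4 to 40.8 CPM in ANT and 141 to 176 CPM in SAS, and its members went in both directions. Eomes (0.679 to 155 CPM, ANT to SAS means), Klrb1c (0.0345 to 0.792) and Gzmb (0.0435 to 0.274) were higher in SAS, Prf1 was lower (35.8 to 3.69), and Ncr1 and Klra8 had no counts in any library. All 3 genes of that list that passed the low-count filter were called, 2 as higher in SAS and 1 as lower. The 15 cell cycle genes summed to 403 ± 25.3 CPM in ANT and 563 ± 57.0 CPM in SAS (SD, n = 4 each), and 13 of them were called higher in SAS. The part of these differences in the results below was not tested. In bulk samples, fewer cells of a type and less RNA per cell cannot be told apart.

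As a group, the mitoribosome genes differed little between the clones. Of 77 members tested, 6 were called higher in SAS, 5 were called higher in ANT and 66 were not called (edgeR quasi-likelihood test, adjusted p under 0.05). The members' share called was 14.3%, beside 37.4% of all 12619 genes tested. Of all genes, 19.8% were called higher in SAS and 17.7% higher in ANT. Among the 6719 protein-coding genes within the members' range of mean CPM, 35.8% were called. The median log2 fold change (SAS minus ANT) was -0.0017 over the members and -0.0032 over all genes. The median size of the log2 fold change, whatever its direction, was 0.15 for members and 0.35 for all genes. The spread between libraries of 1 clone was similar for both, with a median SD of 0.209 for members and 0.222 for all genes on the log2 scale. For 47 members (61.0%) the difference between clones was smaller than that spread, against 32.9% of all genes. All SAS libraries lay above all ANT libraries for 6 members and below them for 5, while over all genes the groups did not overlap in 38.1% (20.5% with SAS above and 17.7% with SAS below).

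**Figure D1:**
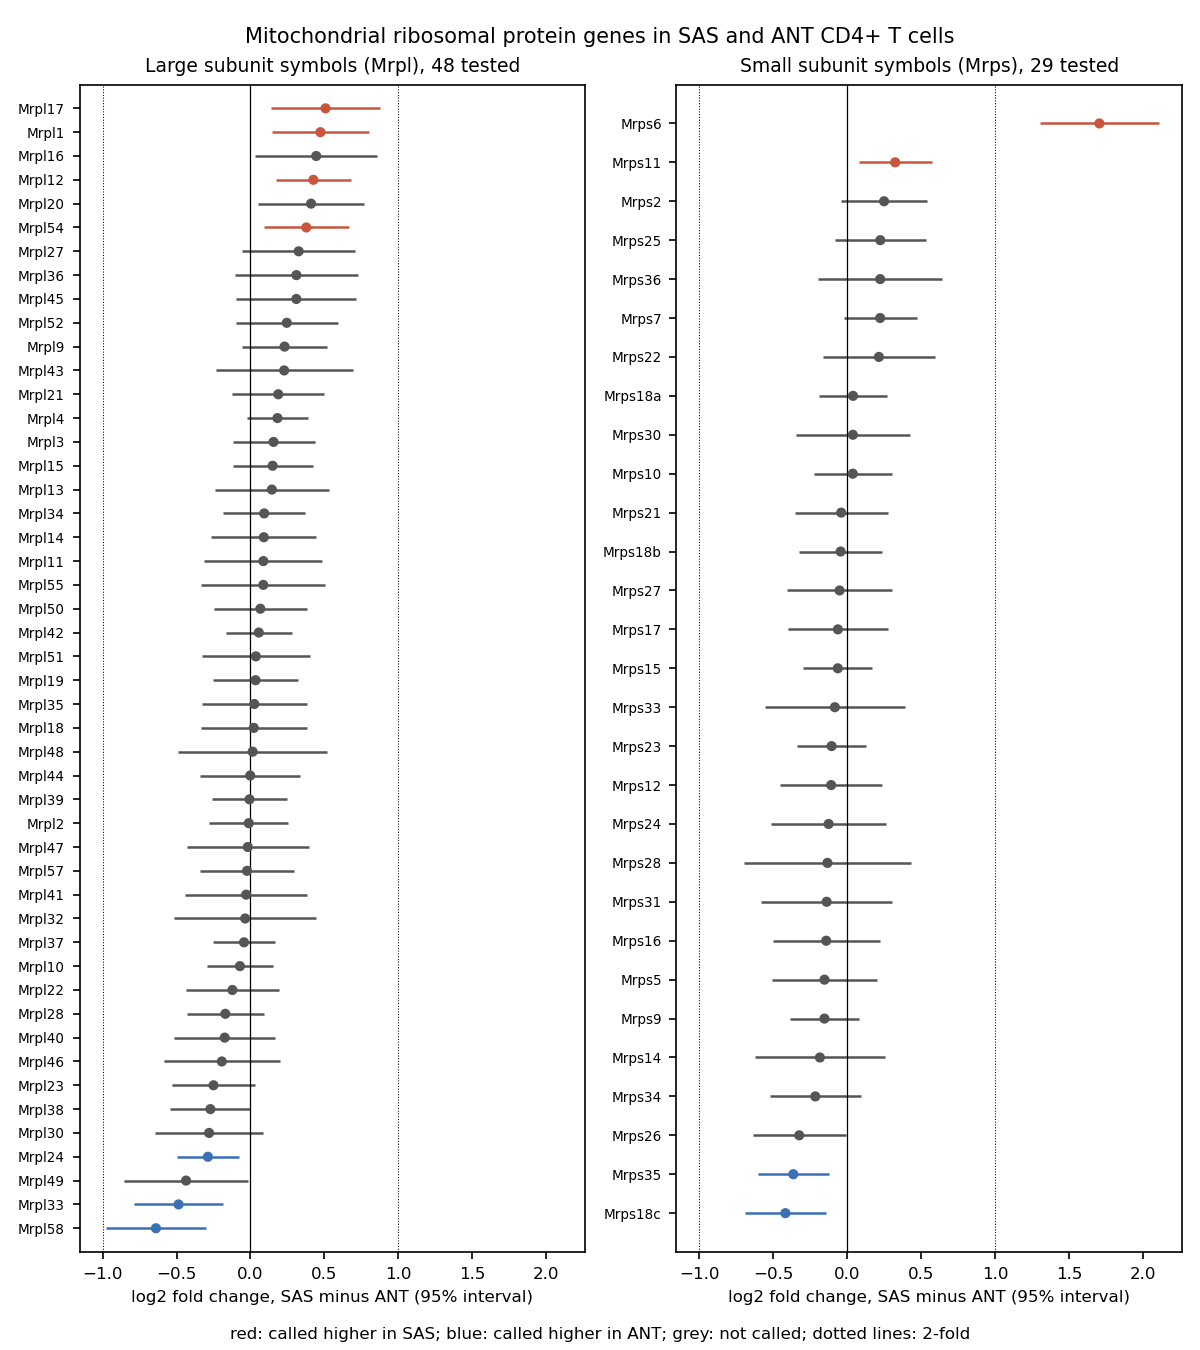
Log2 fold change (SAS minus ANT) of each tested member with its 95% interval, for large subunit symbols (left) and small subunit symbols (right), 4 libraries per clone; red and blue mark calls at an adjusted p under 0.05. Mrps6, at 1.71, is the one member beyond the dotted 2-fold lines, and the 66 grey intervals all lie within them.

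For the 66 members that were not called, the intervals limit how far these 2 sets of libraries differed. They hold only the spread among these libraries, which may be technical. All 66 had a 95% interval within a 2-fold difference, and 51 had one within 1.5-fold. The lowest bound was -0.86, for Mrpl49, and the highest was 0.86, for Mrpl16. These bounds depend on the ANT libraries used. Mrpl49 was at -0.75 (SE 0.15) without ANT 4 and ANT 5, and Mrpl16 at 0.74 (SE 0.19) without ANT 1 and ANT 3. The plot of log2 fold changes shows these intervals beside the 11 called members.

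Mrps6 was the exception. It encodes a small subunit protein with a bacterial counterpart and lies at chr16:92058270-92112227 on the plus strand (GRCm38). Its level was 9.86, 9.30, 14.0 and 12.4 CPM in ANT replicates 1, 3, 4 and 5, and 43.7, 29.6, 32.3 and 43.1 CPM in SAS replicates 1, 2, 3 and 6. The highest ANT library thus was below the lowest SAS library. Mrps6 rose 3.26-fold (log2 fold change 1.71, SE 0.18, adjusted p = 4.8e-05), the one member with a change of at least 2-fold, a size that 15.9% of all genes reached with a call. The call held in all 8 fits that each left out a library, with adjusted p up to 0.000257.

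Mrps6 starts 52 bases from Slc5a3, the sodium/myo-inositol cotransporter gene, on the same strand, and 159 exon bases (10.4% of the exon bases of Mrps6) belong to both. Slc5a3, chosen here after its values were seen, had 25.7, 20.9, 33.0 and 49.8 CPM in the ANT libraries and 151, 179, 138 and 150 CPM in the SAS libraries. It rose by a log2 fold change of 2.26 (SE 0.24, edgeR adjusted p = 4.8e-05). Another 305 exon bases of Mrps6 (19.9%) also belong to the predicted gene Gm49711. No source used here says how reads in shared bases were counted, so the values of Mrps6 and Slc5a3 are uncertain to that extent, and the part of Slc5a3 in the Mrps6 result was not tested. Mrps6 was also among the members that were lower in ANT replicates 1 and 3 than in ANT replicates 4 and 5.

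**Figure D2:**
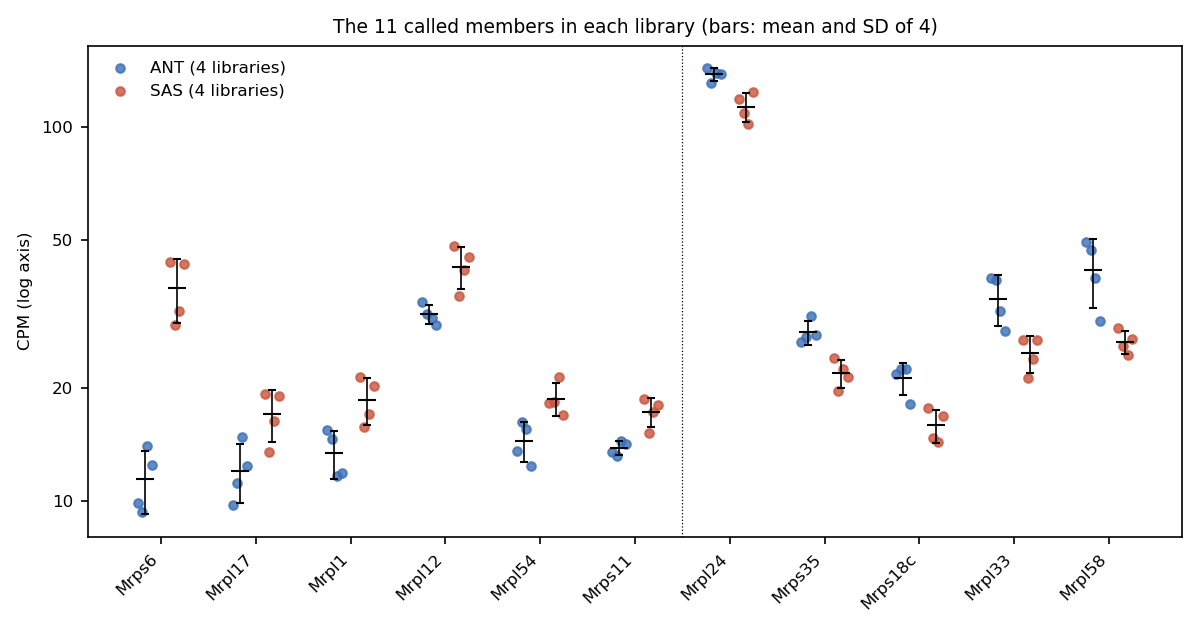
CPM on a log axis of the 11 called members in each of the 4 ANT (blue) and 4 SAS (red) libraries, with black bars for the mean and SD; members left of the dotted line were called higher in SAS. Mrps6 has the widest gap, from 14.0 CPM in the highest ANT library to 29.6 CPM in the lowest SAS library, and the Mrpl17 groups overlap.

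The promoter windows of 5 called members are shown because they were tested for the same short motifs and the members moved in both directions. They are RefSeq windows of build GRCm38.p6, from 250 bases before to 50 bases after the annotated start, written 5′ to 3′ on the gene's strand. Capitals mark exact matches to the NRF1 motif (GCGCA and GCGC with any 1 base between them), the ETS motif CCGGAAG (bound by GABPA among others), the YY1 motif AAGATGGC or the E-box CACGTG, on either strand. Adjacent or overlapping matches run together in the capitals. Mrps6, Mrpl12 and Mrpl17 were called higher in SAS, and Mrpl58 and Mrps18c higher in ANT.
Mrps6, chr16:92058086-92058385, plus strand: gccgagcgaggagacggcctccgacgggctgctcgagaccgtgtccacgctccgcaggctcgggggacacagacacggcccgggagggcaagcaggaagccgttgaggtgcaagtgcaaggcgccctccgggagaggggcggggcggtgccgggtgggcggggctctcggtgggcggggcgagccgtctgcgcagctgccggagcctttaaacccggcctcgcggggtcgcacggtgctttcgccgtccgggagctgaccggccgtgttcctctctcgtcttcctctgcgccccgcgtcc
Mrpl12, chr11:120484387-120484686, plus strand: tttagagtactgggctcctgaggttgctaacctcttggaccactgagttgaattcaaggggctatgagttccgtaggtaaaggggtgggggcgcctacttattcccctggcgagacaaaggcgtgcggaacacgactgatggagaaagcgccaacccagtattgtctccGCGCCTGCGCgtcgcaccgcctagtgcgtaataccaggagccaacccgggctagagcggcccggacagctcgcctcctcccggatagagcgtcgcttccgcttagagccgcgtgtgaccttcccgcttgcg
Mrpl17, chr7:105811038-105811337, minus strand: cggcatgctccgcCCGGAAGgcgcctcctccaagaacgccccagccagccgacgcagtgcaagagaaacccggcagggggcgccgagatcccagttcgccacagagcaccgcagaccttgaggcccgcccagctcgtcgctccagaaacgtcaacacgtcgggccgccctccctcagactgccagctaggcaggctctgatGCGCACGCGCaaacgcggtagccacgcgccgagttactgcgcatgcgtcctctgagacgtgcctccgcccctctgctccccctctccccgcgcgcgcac
Mrpl58, chr11:115403502-115403801, plus strand: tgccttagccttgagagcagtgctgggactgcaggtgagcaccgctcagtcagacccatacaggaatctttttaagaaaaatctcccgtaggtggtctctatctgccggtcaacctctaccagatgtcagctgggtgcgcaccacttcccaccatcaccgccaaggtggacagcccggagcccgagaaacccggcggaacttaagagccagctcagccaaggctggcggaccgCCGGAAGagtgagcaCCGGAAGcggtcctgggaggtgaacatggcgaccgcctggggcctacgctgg
Mrps18c, chr5:100798509-100798808, plus strand: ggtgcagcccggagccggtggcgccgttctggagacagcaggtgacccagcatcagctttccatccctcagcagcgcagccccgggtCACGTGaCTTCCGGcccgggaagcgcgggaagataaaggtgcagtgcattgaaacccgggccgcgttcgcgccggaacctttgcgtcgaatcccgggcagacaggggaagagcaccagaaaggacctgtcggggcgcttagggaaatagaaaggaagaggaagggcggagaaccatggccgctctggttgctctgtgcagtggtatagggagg

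The Mrps6 window held no match to these 4 motifs, the Mrpl12 window held 1 NRF1 match, and the Mrpl17 window held 1 NRF1 and 1 ETS match. The Mrpl58 window held 2 ETS matches, of which the second spans the annotated start. The Mrps18c window held 1 ETS match, read on the opposite strand, and 1 E-box. A match is a description of letters and not a binding site.

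Across the family, 69 of 78 members had a RefSeq window, with 75 windows in all. The ETS motif was in 26 of them (34.7%, against 18.6% of 11747 windows of tested genes), the NRF1 motif in 13 (17.3% against 10.4%) and the YY1 motif in 12 (16% against 4.62%). At least 1 of the 3 was in 57.3% of the members' windows and 29.9% of those of tested genes. The E-box was in 7 windows (9.33% against 10.03%), CCAAT in 30 (40% against 37.9%) and TATAAA in 5 (6.67% against 6.77%). Median GC content was 58.7% and 60.7%. Of 5 windows of members called higher in SAS, 3 held an NRF1, ETS or YY1 match, and of 4 windows of members called higher in ANT, 3 did.

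The other members called higher in SAS changed by less than 1.5-fold. Mrpl12, the protein of the flexible L7/L12 stalk that recruits translation factors and has also been reported to bind the mitochondrial RNA polymerase, had 34.1, 31.7, 30.8 and 29.6 CPM in ANT and 48.0, 35.3, 41.4 and 44.8 CPM in SAS. Its groups did not overlap, although SAS replicate 2 lay close to ANT replicate 1. Mrpl12 rose by a log2 fold change of 0.43 (SE 0.11, edgeR adjusted p = 0.0145), and the call held without each library in turn, with adjusted p up to 0.0457. It did not hold without ANT replicates 4 and 5 together (adjusted p = 0.0687).

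Mrpl1, which forms the L1 stalk of the large subunit, had 15.5, 14.7, 11.6 and 11.9 CPM in ANT and 21.4, 15.7, 17.05 and 20.3 CPM in SAS. The lowest SAS library, replicate 2, was barely above the highest ANT library. It rose by 0.47 on the log2 scale (SE 0.15, edgeR adjusted p = 0.0296), but the call ended without ANT 4, ANT 5, SAS 1 or SAS 6 (adjusted p 0.0807 to 0.0880). Mrpl17, a large subunit protein with a bacterial counterpart, had 9.73, 11.1, 14.8 and 12.4 CPM in ANT and 19.3, 13.5, 16.4 and 19.1 CPM in SAS. Its groups overlapped, since ANT replicate 4 exceeded SAS replicate 2. Mrpl17 rose by 0.51 (SE 0.17, edgeR adjusted p = 0.0353), a call that ended without ANT 1, ANT 3, ANT 5, SAS 1, SAS 3 or SAS 6 (adjusted p 0.0565 to 0.0982).

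Mrpl54, a large subunit protein without a bacterial counterpart, had 14.4 ± 1.76 CPM in ANT and 18.8 ± 1.88 CPM in SAS, with every SAS library above every ANT library. It rose by 0.38 (SE 0.13, edgeR adjusted p = 0.0421). Mrps11, a conserved small subunit protein, had 13.8 ± 0.587 CPM in ANT and 17.3 ± 1.53 CPM in SAS, again without overlap. It rose by 0.32 (SE 0.11, edgeR adjusted p = 0.0429). Both calls lay near the threshold. That of Mrpl54 held without ANT 3 alone and ended without any of the other 7 libraries (adjusted p 0.0522 to 0.118), and that of Mrps11 held without SAS 2 alone and ended otherwise (0.0740 to 0.118). Without a low-count filter, which adds many genes to the adjustment, Mrps6 and Mrpl12 stayed called among these 6, and the calls of Mrpl17 (0.0618), Mrpl1 (0.0652), Mrpl54 (0.0950) and Mrps11 (0.127) ended. Scaling by upper-quartile factors also ended those of Mrpl54 (0.0566) and Mrps11 (0.0509).

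Among the members called higher in ANT, Mrpl58 had the largest difference. It encodes ICT1, a peptidyl-tRNA hydrolase built into the large subunit that can release stalled peptides. Mrpl58 had 49.5, 47.0, 39.4 and 30.2 CPM in ANT and 29.0, 26.0, 24.5 and 27.1 CPM in SAS. All SAS libraries were below all ANT libraries, although ANT replicate 5 lay just above SAS replicate 1. Mrpl58 fell by 0.64 on the log2 scale in SAS (SE 0.15, edgeR adjusted p = 0.00761), and the call held without each library in turn, with adjusted p up to 0.0273.

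Mrpl33, a small large-subunit protein with a bacterial counterpart, had 39.5, 38.9, 32.2 and 28.4 CPM in ANT and 27.0, 21.3, 23.9 and 27.0 CPM in SAS. It fell by 0.49 (SE 0.14, edgeR adjusted p = 0.0180), and the call ended without ANT 1, ANT 3 or SAS 3 (adjusted p 0.0502 to 0.0532). Mrpl24, the member with the highest level per length, had 144, 132, 140 and 139 CPM in ANT and 119, 109, 102 and 125 CPM in SAS. It fell by 0.29 (SE 0.09, edgeR adjusted p = 0.0347), a call that ended without ANT 1, ANT 4, ANT 5, SAS 1, SAS 2 or SAS 3 (adjusted p 0.0531 to 0.102). On the opposite strand, 594 of the exon bases of Mrpl24 (26.3%) overlap Rrnad1, and without the strand setting of the counting those reads cannot be assigned with certainty.

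Mrps18c, 1 of several homologues of bacterial S18, had 21.8, 22.6, 22.5 and 18.2 CPM in ANT and 17.7, 14.7, 14.4 and 16.9 CPM in SAS. It fell by 0.42 (SE 0.12, edgeR adjusted p = 0.0222), a call that ended without ANT 1, ANT 3, ANT 4, SAS 2 or SAS 3 (adjusted p 0.0518 to 0.0630). Mrps35, a small subunit protein specific to mitochondria, had 28.3 ± 2.08 CPM in ANT and 21.9 ± 1.85 CPM in SAS. It fell by 0.37 (SE 0.11, edgeR adjusted p = 0.0225), and the call ended without ANT 4, SAS 2 or SAS 6 (adjusted p 0.0560 to 0.0609). All SAS libraries were below all ANT libraries for both genes. With scaling by library size alone, which moved the median log2 fold change of all genes to 0.094, the members called higher in ANT numbered 1, Mrpl58, and those higher in SAS numbered 9. The median of the members was then 0.098, so negative medians nearer to 0 than that shift become positive under it, that of the small subunit among them.

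Neither subunit as a whole moved far, and the large subunit lay slightly above the small in SAS relative to ANT. Of 48 large subunit members tested, 4 were called higher in SAS and 3 higher in ANT, and of 29 small subunit members, 2 and 2. The median log2 fold change was 0.035 for the large and -0.064 for the small subunit, a difference of 0.0995. Between libraries of 1 clone, the SD of each subunit's median deviation was 0.149 (large) and 0.135 (small), but both moved together. The SD of the large minus small difference in median deviation was 0.033. It is not the spread of the 0.0995, which is a difference between medians of fold changes. The difference in median deviation was -0.011, -0.010, 0.014 and -0.082 in ANT replicates 1, 3, 4 and 5 and 0.063, 0.045, 0.022 and 0.014 in SAS replicates 1, 2, 3 and 6. The SAS values were all above the ANT values, with ANT 4 and SAS 6 nearly equal. The difference between the subunits' median log2 fold changes was 0.0363 without ANT 4 and ANT 5 and -0.0058 without ANT 1 and ANT 3, so its direction rested on which ANT libraries were used. Grouped by structure, with Mrps18a and Mrps30 counted in the large subunit and Mrps36 in neither, the medians were 0.037 (50 members) and -0.095 (26 members). With scaling by library size alone, the subunit medians were 0.13 and 0.034, and their difference was 0.1005.

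Summed over the large subunit, levels were 1409, 1380, 1310 and 1195 CPM in ANT and 1464, 1185, 1279 and 1385 CPM in SAS. The small subunit summed to 741, 743, 709 and 637 CPM in ANT and 756, 616, 694 and 734 CPM in SAS. The ranges of the clones overlapped for both subunits, with means of 1323 ± 95.5 and 1328 ± 122 CPM (large) and 707 ± 49.2 and 700 ± 61.6 CPM (small). The ratio of the sums was 1.87 ± 0.0239 in ANT and 1.90 ± 0.0423 in SAS, and relative to its mean it varied less between libraries than either sum did. Both the small subunit sum and the ratio include Mrps6. Without Mrps6 the small subunit summed to 696 ± 50.6 CPM in ANT and 663 ± 55.0 CPM in SAS. The closeness of the clones in the small subunit sum and in the ratio thus depends in part on that gene. Because CPM is not scaled by length, the ratio compares clones and is not the ratio of the proteins' transcripts per length.

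**Figure D3:**
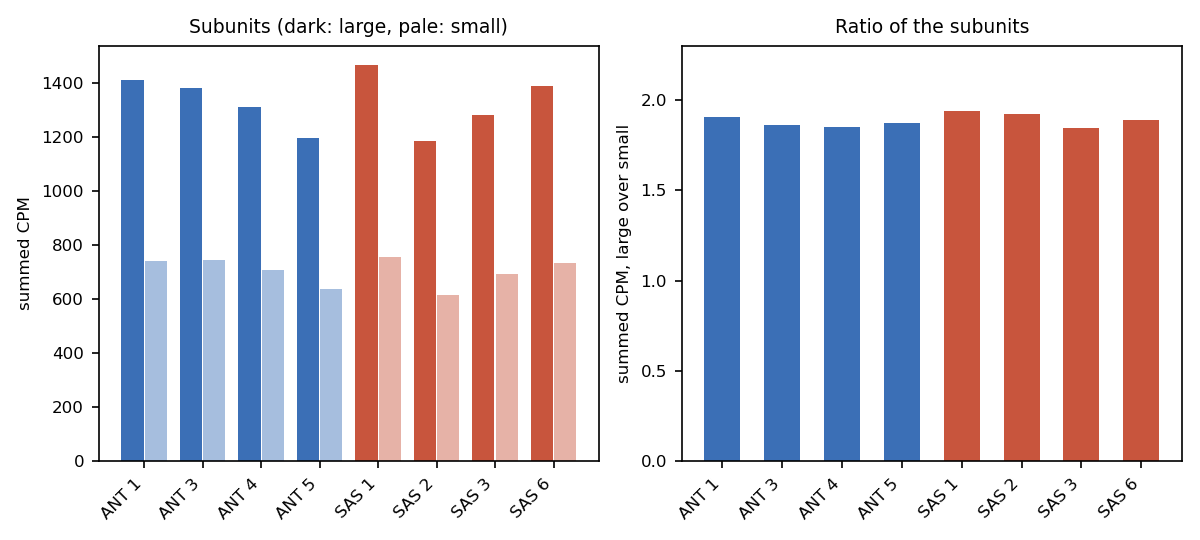
Summed CPM of 48 large subunit (dark bars) and 29 small subunit (pale bars) genes in each library (left), and the ratio of the sums (right), ANT blue and SAS red. The sums range from 1185 to 1464 CPM for the large subunit, while the ratio stays between 1.84 and 1.94.

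Members with a bacterial counterpart and members specific to mitochondria had small median differences. Of 46 with a counterpart, 5 were called higher in SAS and 3 higher in ANT, with a median log2 fold change of 0.030. Of 31 specific to mitochondria, 1 was called higher in SAS and 2 higher in ANT, with a median of -0.023.

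Most members varied more between libraries of 1 clone than between the clones, and they varied together. SAS replicate 1 exceeded SAS replicate 2 in 71 of 77 members (92.2%), against 49.1% of all genes. This pair has the highest and the lowest member median among the SAS libraries, and other SAS pairs were not counted. ANT replicates 1 and 3 both exceeded ANT replicates 4 and 5 in 45 members (58.4%), against 38.04% of all genes, and were both below in 16 (20.8%), against 35.9%. The members' median deviation from their mean over the 8 libraries, on a log2 scale, was 0.090, 0.085, -0.043 and -0.18 in ANT replicates 1, 3, 4 and 5. In SAS replicates 1, 2, 3 and 6 it was 0.18, -0.17, -0.032 and 0.088. The clones' means, -0.011 ± 0.13 in ANT and 0.016 ± 0.15 in SAS, lay closer together than either SD.

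Transcripts of the 13 protein genes of mitochondrial DNA, the templates of these ribosomes, took 2.54%, 2.44%, 1.62% and 1.54% of the counts in the ANT libraries and 2.04%, 1.56%, 1.94% and 1.76% in the SAS libraries. They were high in ANT 1 and ANT 3 and low in ANT 4, ANT 5 and SAS 2, where the members' medians were also high or low. The other SAS libraries did not keep this order. SAS 1 had the highest median (0.18) with a share of 2.04%. SAS 6, with a median of 0.088, had a lower share (1.76%) than SAS 3 (1.94%), with a median of -0.032. A principal component of all genes, the second, placed ANT 1, ANT 3 and SAS 1 (24.97, 26.64 and 23.55) opposite ANT 4, ANT 5 and SAS 2 (-25.10, -31.33 and -24.98). SAS 3 (-4.42) and SAS 6 (10.65) lay between them. The part of this difference between libraries in the calls was not tested. Without ANT 4 and ANT 5, 5 members were called higher in SAS and 11 higher in ANT, and without ANT 1 and ANT 3 the counts were 10 and 4. Over all genes, 3089 of 13288 were called higher in SAS and 2824 higher in ANT without ANT 4 and ANT 5. Without ANT 1 and ANT 3, these counts were 2560 and 2219 of 13245.

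**Figure D4:**
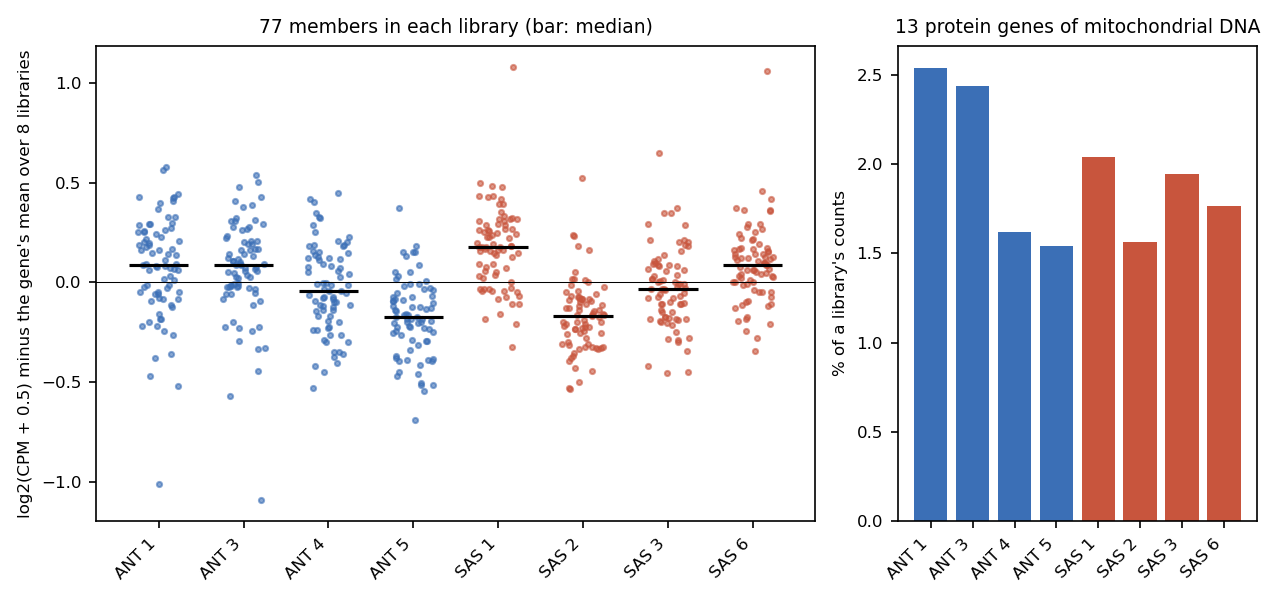
Left, the log2(CPM + 0.5) of each of 77 members minus its mean over the 8 libraries, with a bar at the median of each library; right, the percent of each library's counts in 13 protein genes of mitochondrial DNA. The medians run from -0.18 in ANT 5 to 0.18 in SAS 1, and the share of mitochondrial transcripts from 1.54% in ANT 5 to 2.54% in ANT 1.

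Levels per length spanned a wide range for proteins of a shared particle. Mean RPKM (CPM per kilobase of exon) ran from 1.91 to 56.0, with a median of 10.6 for the large and 7.96 for the small subunit. The highest large subunit genes were Mrpl24 (56.0), Mrpl18 (31.7) and Mrpl52 (26.4), and the highest small subunit genes were Mrps21 (29.8) and Mrps23 (28.9), followed by Mrps18c (17.3). The lowest RPKM were those of Mrpl17 (1.91) and Mrpl47 (2.83) in the large subunit and of Mrps25 (2.68) and Mrps10 (2.71) in the small subunit. On the opposite strand, 4590 exon bases of Mrps25 (69.8%) overlap Nr2c2, at means of 203 CPM in ANT and 227 CPM in SAS. Without the strand setting of the counting, the level of Mrps25 is uncertain to that extent. These values divide by all annotated exon bases, and by the length of the principal transcript the order changed in part: Mrpl24 (94.3), Mrpl52 (69.9) and Mrpl33 (62.3) led the large subunit, and Mrps21 (45.1), Mrps9 (39.5) and Mrps23 (33.8) led the small subunit. Of the genes named by RPKM over all exon bases, Mrpl24, Mrpl17 and Mrps18c were called between clones. Mrpl18, Mrpl52, Mrpl47, Mrps21, Mrps23, Mrps25 and Mrps10 were not, with log2 fold changes from -0.11 to 0.25.

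Several members with a separate role or an unusual place in the particle were not called. Mrps36, found as a subunit of the oxoglutarate dehydrogenase complex, had a log2 fold change of 0.22 (95% interval -0.20 to 0.64). Mrps18a and Mrps30, which sit in the large subunit despite their symbols, each had 0.04 (intervals -0.19 to 0.27 and -0.35 to 0.42). Mrpl10, the base of the L7/L12 stalk, had -0.07 (-0.30 to 0.15), while its partner Mrpl12 was called. Mrps18b had -0.05 (-0.33 to 0.24), and Mrps27, which has pentatricopeptide repeats that bind RNA, also had -0.05 (-0.41 to 0.30). Of the other members named by the rule, log2 fold changes without a call were -0.14 for Mrps16, 0.21 for Mrps22, -0.22 for Mrps34 and -0.00 for Mrpl44. Mrpl4 (0.18, edgeR adjusted p = 0.145), named because it was the one member with non-overlapping groups and no call, had every SAS library above every ANT library.

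Mrpl53 (chr6:83109040-83109939, plus strand) was the one member that could not be tested, with 0 counts in all 8 libraries. Of its exon bases, 695 (88.0%) are shared on the same strand with the predicted gene Gm42688, which had 1245 counts in all, so the 0 is a value of this table and says little about transcription of the locus. Mrps34 shares 763 exon bases (37.0%) with Nme3, which had 0 counts in all libraries. On the opposite strand, 1309 of its exon bases (63.4%) overlap Mapk8ip3, at means of 244 CPM in ANT and 231 CPM in SAS. The strand setting of the counting is not known, so the values of Mrps34 are uncertain to that extent. The genes with pseudogene copies in the annotation, Mrpl23, Mrpl48 and Mrps36, are uncertain to the extent that reads map to both.

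Many members start close to another gene. A protein-coding gene on the opposite strand starts within 1 kb of 33 of 78 members (42.3%), against 1970 of 11176 protein-coding genes tested (17.6%). Both genes were tested in 29 such pairs, of which 19 (65.5%) had log2 fold changes of the same sign. That share was not computed for pairs of other genes. The partner was called in 9 pairs (31.0%, against 37.4% of all genes), the member in 2 (6.90%), and both in 1, counting Mrps11 as the partner of Mrpl46. The pairs named here were chosen after their values were seen. Mrps18c and Helq, a DNA helicase gene whose start lies 29 bases away, both fell in SAS (-0.42 and -0.73, the latter with SE 0.11).

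In 8 pairs the partner was called and the member was not, 1 of them Mrpl46 with Mrps11. Ncapd2, a condensin subunit gene 100 bases from Mrpl51, rose by 1.32 while Mrpl51 was at 0.04. Ska3, a kinetochore gene 49 bases from Mrpl57, rose by 1.80 from a low level (0.282 to 0.997 CPM) while Mrpl57 was at -0.02, and Eme1, an endonuclease gene 197 bases from Mrpl27, rose by 1.32 with Mrpl27 at 0.33. Wdfy1 rose by 0.75 beside Mrpl44 at -0.00. In the other direction, Pnpla7, a lysophospholipase gene 935 bases from Mrpl41, fell by 1.30 while Mrpl41 was at -0.03. Mitd1 fell by 0.92 beside Mrpl30 at -0.28, and Fau, which encodes a fusion of a ubiquitin-like protein and a cytosolic ribosomal protein, fell by 0.76 beside Mrpl49 at -0.44. The difference between member and partner was not tested. Mrpl46 and Mrps11, 1 gene of each subunit whose starts lie 412 bases apart, were at -0.19 and 0.32.

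**Figure D5:**
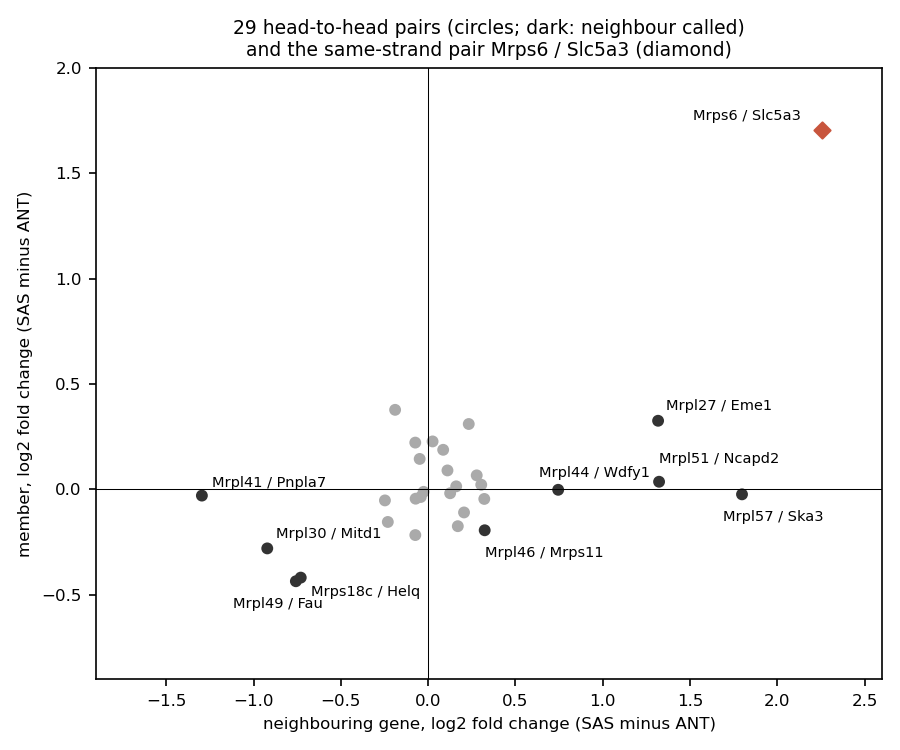
Log2 fold change (SAS minus ANT) of the gene that starts beside a member (x axis) against that of the member (y axis), for 29 head-to-head pairs (circles, dark where the neighbour was called) and for Mrps6 with Slc5a3 on the same strand (diamond). Called neighbours range from -1.30 to 1.80 among the head-to-head pairs while all members of these pairs lie between -0.44 and 0.38.

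Other proteins of the particle that carry different symbols were not called either. Of Dap3, Aurkaip1, Chchd1, Ptcd3 and Gadd45gip1, 0 of 5 were called by edgeR. Dap3, the GTP-binding protein of the small subunit, had 87.5, 85.4, 95.9 and 87.8 CPM in ANT and 105, 99.0, 103 and 104 CPM in SAS. Its groups did not overlap, with a log2 fold change of 0.20 (edgeR unadjusted p = 0.0349, adjusted p = 0.0815), the 1 gene of the 5 with an unadjusted p under 0.05. DESeq2 called it and limma-voom called 0 of the 5. The other 4 had log2 fold changes from -0.13 (Aurkaip1) to 0.07 (Chchd1).

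Genes that build or modify the ribosome included calls in both directions. Of 27 assembly and ribosomal RNA modification genes, 6 fell (22.2%, against 17.7% of all genes) and 1 rose (3.70%, against 19.8%). The list median was -0.21 (-0.11 with scaling by library size alone, where 4 were called lower and 3 higher). Mrm1, a methyltransferase of the large ribosomal RNA, had 23.3, 23.2, 22.1 and 18.3 CPM in ANT and 11.1, 9.50, 9.84 and 12.8 CPM in SAS. It fell by 1.01 (SE 0.14, edgeR adjusted p = 0.000277). Rpusd4, a pseudouridine synthase, fell by 0.67 (SE 0.17, edgeR adjusted p = 0.0104), whereas Ddx28, an RNA helicase of large subunit assembly, rose by 0.79 (SE 0.13, edgeR adjusted p = 0.000900). The calls of Mrm1 and Ddx28 held in all 18 alternative fits and that of Rpusd4 in all but the fit without ANT 1 and ANT 3 (adjusted p = 0.0733).

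Of 16 translation factors, 3 rose in SAS (18.8%, near the 19.8% of all genes), 0 fell and 13 were not called, with a median of 0.21. With scaling by library size alone, 9 were called higher and 0 lower. At an unadjusted p under 0.05, edgeR had 8 higher and 2 lower, and DESeq2 called 7 higher and 2 lower at its adjusted threshold. Mrrf, the ribosome recycling factor, had 14.7, 12.8, 10.2 and 10.3 CPM in ANT and 26.0, 17.2, 20.8 and 26.8 CPM in SAS, and rose by 0.92 (SE 0.18, edgeR adjusted p = 0.00238). C1qbp, a matrix protein needed for mitochondrial translation, rose by 0.90 (SE 0.23, edgeR adjusted p = 0.0111), from 26.0 to 50.9 CPM over the ANT libraries to 59.1 to 86.8 CPM over the SAS libraries. Tufm, the elongation factor that brings aminoacyl-tRNA to the ribosome, rose from 53.1 ± 3.40 to 72.1 ± 13.9 CPM (log2 fold change 0.44, edgeR adjusted p = 0.0300). The call of Tufm ended without any of ANT 1, ANT 3, ANT 4, ANT 5, SAS 1 and SAS 6 (adjusted p 0.0518 to 0.0860).

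Of 22 mitochondrial aminoacyl-tRNA synthetases, 4 fell (18.2%, near the 17.7% of all genes) and 1 rose (4.55%, against 19.8%), with a median of -0.01. Ears2 (glutamate) fell by 0.999 (SE 0.19, edgeR adjusted p = 0.00194) and Mars2 (methionine) fell by 0.51 (SE 0.10, edgeR adjusted p = 0.00306), while Kars, which also encodes the cytosolic lysine enzyme, rose by 0.48 (SE 0.11, edgeR adjusted p = 0.00649).

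Among 19 genes of mitochondrial transcription and DNA maintenance, 4 fell (21.1%, against 17.7% of all genes) and 1 rose (5.26%, against 19.8%). Their median was -0.10. Polg2, the accessory subunit of the DNA polymerase, fell by 0.81 (SE 0.16, edgeR adjusted p = 0.00255), and Tfb2m, the transcription initiation factor, fell by 0.57 (SE 0.13, edgeR adjusted p = 0.00496). Tfam, the protein that packages mitochondrial DNA, had 70.0 ± 3.13 CPM in ANT and 58.2 ± 4.48 CPM in SAS. It fell by 0.27 (edgeR adjusted p = 0.0457), but without any single library the call ended (adjusted p 0.0530 to 0.114). Supv3l1, an RNA helicase, rose by 0.32 (edgeR adjusted p = 0.0342), a call that ended without ANT 1, ANT 4, ANT 5, SAS 1 or SAS 6 (adjusted p 0.0650 to 0.110). Polrmt, the mitochondrial RNA polymerase, was not called (-0.15, 95% interval -0.53 to 0.23). Of the 13 measured RNAs of mitochondrial DNA, 0 were called by edgeR, DESeq2 or limma-voom, and 0 had an unadjusted p under 0.05 in edgeR, with a median of -0.06.

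Of 11 tested regulators of nuclear genes for mitochondrial proteins, 4 rose (36.4%, against 19.8% of all genes) and 1 fell (9.09%, against 17.7%). Their median was 0.25. Myc had 33.6, 29.3, 77.0 and 73.8 CPM in ANT and 115, 82.6, 115 and 123 CPM in SAS. It was lower in ANT 1 and ANT 3 than in ANT 4 and ANT 5, the opposite order to most members, and rose by 1.03 (SE 0.30, edgeR adjusted p = 0.0229). That call ended without ANT 1, SAS 3 or SAS 6 (adjusted p 0.0517 to 0.0585). Atf5, a factor of the mitochondrial stress response, rose by 0.72 (SE 0.15, edgeR adjusted p = 0.00433), and Tfe3 rose by 0.62 (SE 0.17, edgeR adjusted p = 0.0187), the latter not without SAS 3 (adjusted p = 0.0537). Atf4 fell by 0.34 (SE 0.10, edgeR adjusted p = 0.0215), a call that ended without SAS 1 or SAS 6 (adjusted p 0.0569 to 0.0671) or with scaling by library size alone (0.0683). Nrf1 (-0.18, 95% interval -0.39 to 0.03) and Gabpa (-0.02, -0.23 to 0.18), whose motifs are marked in the promoter windows above, were not called, and Ppargc1a did not pass the low-count filter and was not tested.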

How the data were processed

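The values are unnormalized whole-number read counts, which the authors deposited as a single table of 39056 Ensembl genes by 8 libraries. Per the labels, sorted CD4+ T cells were lysed in TRI Reagent and strand-specific mRNA libraries were made with a TruSeq kit. The submitters' processing notes name STAR, featureCounts and the mm10 build. Versions, annotation, strand setting and the treatment of multi-mapped or shared reads are not given in the sources used here. IDs without version suffix were matched to GENCODE M21 (GRCm38): 38872 matched and 184 did not.

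The SAS and ANT counts of the 12619 genes that passed edgeR's default low-count filter were compared with edgeR 4.0.16 under R 4.3.3 (TMM scaling, robust quasi-likelihood, SAS against ANT, no covariates). Calls were made at a Benjamini-Hochberg adjusted p under 0.05 over all of them. SE is the absolute log2 fold change over the root of the F statistic. RPKM divides by summed exon length. Values are mean ± SD of 4 libraries. Tests were checked on simulated counts with 200 of 12619 genes changed, far fewer than were called in the data. There, 4.14% of the calls of edgeR and of limma-voom and 11.4% of those of DESeq2 were false. Alternatives were other scalings and filters, DESeq2 1.42.0, limma-voom 3.58.1, a replicate block, leaving out libraries and an adjusted p under 0.01. The members and lists were chosen with earlier results of these data known, so lists are described by counts and medians without a list test. Named genes are the called members (up to 8 each way), the 3 highest and 2 lowest per subunit by RPKM, untested members, members with known separate roles, and the 2 called genes of each pathway list with the smallest p each way, plus fixed regulators; others were named after their values were seen. No 2 libraries agreed within sampling noise. No protein sequences were used here.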

Additional observations from a re-analysis of the deposited data

Results flagged for a closer look

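In 62 groups of 4 libraries, 2 held a library that stood apart from the other 3 (Dixon's test at the 95% level, which chance passes in about 1 of 20 groups). Mrps18c was 18.2 CPM in ANT replicate 5 and 21.8 to 22.6 CPM in the other ANT libraries. Mrps34 was 23.3 CPM in SAS replicate 3 and 18.4 to 18.9 CPM in the other SAS libraries.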

How the results depend on the processing

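The calls of Mrps6 and Mrpl58 held in all 18 alternative fits. The other 9 did not, 23 further members were called in at least 1 alternative, and 43 of 77 members were called in none. Of the 77 members, 42 changed sign in at least 1 alternative, none of them called. Scaling by library size alone left 1 member higher in ANT and made 90% of member calls higher in SAS, against 54.5% (64.8% and 52.8% for all genes). Without a low-count filter, 2 members were higher in SAS. At an adjusted p under 0.01, 3044 genes were called, with 1 member in each direction. Leaving out each library in turn gave 2 to 6 members higher in SAS, 2 to 5 higher in ANT and a difference between subunit medians of 0.0797 to 0.1461. Without ANT 4 and ANT 5, 11 members were higher in ANT and the subunit difference was 0.0363. Without ANT 1 and ANT 3, 10 were higher in SAS, the small subunit median was 0.106 and the subunit difference -0.0058. In these fits, in that order, 31.25% and 71.4% of member calls were higher in SAS, against 52.2% and 53.6% over all genes. Replicate numbers 1 and 3 occur in both clones, with correlations of deviations of 0.293 and -0.121. Between ANT and SAS libraries of different numbers the correlations ran from -0.341 to 0.306. Whether libraries of the same number share a batch was not tested. In the replicate block, ANT 4, ANT 5, SAS 2 and SAS 6 each stand alone. That fit thus compares the clones through numbers 1 and 3 only, and its p-values rest on little replication. With the block, member calls numbered 8 for SAS and 7 for ANT (3137 and 2661 over all genes), and the subunit difference was 0.0626. In simulated counts with 200 of 12619 genes changed, edgeR called 22% of true 1.5-fold changes and 79.2% of 2-fold changes. With 4 libraries per clone, most 1.5-fold changes were thus missed there. In the data 4725 genes were called, so the adjusted threshold was less strict than in the simulation. The simulated shares therefore do not carry over to the data. The causes were not tested. The block ended the calls of Mrpl1 (0.131), Mrpl54 (0.0619), Mrps11 (0.0544) and Mrps35 (0.301).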
